A study of Mus musculus with 6 samples.

Results

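The clustered histone genes encode the core histones H2A, H2B, H3 and H4 and the linker histone H1, and carry symbols that begin with Hist1h to Hist4h. All rows of the expression table with such a symbol were taken, which gave 16 genes of 16854. They comprised 3 H1, 2 H2A, 4 H2B, 2 H3 and 5 H4 genes. In the GENCODE M21 annotation of the mouse build GRCm38, 70 genes carry such symbols, and the other 54 were not analysed here. The study compared 2 groups of 3 libraries of C2C12, a mouse myoblast line that fuses into myotubes when serum is lowered. Control cells carried a scrambled short hairpin RNA, and knockdown cells stably expressed a hairpin against Adamtsl2, a secreted matrix glycoprotein. Both groups were grown to confluence and then held in 2% horse serum up to day 3, when RNA was taken and poly(A) messenger RNA was selected. The labels do not give the number of hairpins or of cell clones, nor whether libraries of a group came from separate cultures, so p-values measure the spread between these libraries, which may be technical.

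DNA in the nucleus is wrapped around octamers of the core histones, and H1 binds the DNA between them. Most histone protein is made during S phase from these clustered, mostly intronless genes, whose messenger RNAs end in a conserved stem-loop in place of a poly(A) tail. The stem-loop is bound by SLBP, and such messages are degraded when DNA replication stops. Some of the same genes can also give polyadenylated messages from a signal further downstream, and these have been described in cells that have left the cell cycle. Selection by the poly(A) tail keeps the second form and mostly removes the first, so the values here describe what was retained of each gene.

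The stem-loop was searched for in the annotated transcripts as 16 bases that begin with GG and end with CC, with 6 bases that pair around a loop of 4 (at most 1 unpaired), within 200 bases past the stop codon. Of the 16 genes, 12 held one, each with 0 unpaired positions, and it began 25 to 42 bases past the stop codon. Capitals mark the stem-loop in these 9 genes, which include 6 of the 7 genes called different below and the 3 forms that were found, with 5 bases on each side.
Hist1h1c: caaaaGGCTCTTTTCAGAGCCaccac
Hist1h1d: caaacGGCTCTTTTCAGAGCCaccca
Hist1h1e: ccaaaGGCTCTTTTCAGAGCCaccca
Hist1h2be: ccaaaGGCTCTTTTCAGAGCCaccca
Hist3h2a: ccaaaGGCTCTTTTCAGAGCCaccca
Hist2h3c2: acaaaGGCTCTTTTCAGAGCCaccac
Hist1h4h: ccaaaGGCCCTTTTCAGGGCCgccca
Hist1h4i: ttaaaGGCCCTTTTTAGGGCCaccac
Hist2h4: ctaacGGCCCTTTTTAGGGCCaacca
The first form, shared by all H1, H2A, H2B and H3 genes with a hit, was found in 8 genes. The H4 genes carried the other two forms: Hist1h4d and Hist1h4h shared the one shown for Hist1h4h, and Hist1h4i and Hist2h4 the one in which the loop ends in T. The transcript models of Hist1h2bc, Hist1h2al, Hist1h4k and Hist2h2be held no such hit. The model of Hist1h4k ends at its stop codon, that of Hist1h2bc is spliced from 2 exons, and Hist1h2al is annotated as a processed pseudogene with no coding part.

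A polyadenylation signal (AATAAA or ATTAAA) lay in the last 50 bases of an annotated transcript in 7 genes. In 6 of them the transcript ran at least 200 bases past the stem-loop, or past the stop codon for Hist2h2be, which had none. These 30-base stretches show the signal in capitals near the annotated end of those 6 genes, the places where a tail could be added.
Hist1h1c: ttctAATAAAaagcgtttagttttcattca
Hist2h2be: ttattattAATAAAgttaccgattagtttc
Hist3h2a: atgcccAATAAAataagagtacgtgtataa
Hist2h4: acataaAATAAAatcttaaaaacaacaaaa
Hist1h2be: tgtgttccttATTAAAgcattcctgattga
Hist1h4i: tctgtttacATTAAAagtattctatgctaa
The transcript end lay 840 bases past the stem-loop in Hist1h1c, 1861 in Hist1h2be, 1643 in Hist3h2a, 1257 in Hist2h4 and 330 in Hist1h4i.

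Values are normalised signal, that is, read counts scaled by the size factor of each library, from 37346439 to 50329438 recovered reads per library, where 1 read was worth 0.829 to 1.26 units. Adamtsl2, the hairpin target, was at 1266 to 1325 in control and at 23.2, 21.7 and 7.83 in knockdown libraries 1 to 3. Of 8 myoblast and myotube markers, 7 were lower and 1 higher in the knockdown, and their summed signal was 956739 to 982856 in control and 8618 to 9924 in the knockdown; none of the 8 was at 0. Of the other cell types checked, 3 of 4 leukocyte, 2 of 3 endothelial and 1 of 3 epithelial markers had a row, with summed signals of 73.0 to 110.2, 6.32 to 6.65 and 14.3 to 25.3 in control and 106 to 187, 18.2 to 90.5 and 24.3 to 33.2 in the knockdown. Among single markers, the leukocyte marker Lyz2 had 0 to 2 reads per control library (signal 0 to 2.18) and was at 42.3, 42.7 and 62.6 in knockdown libraries 1 to 3 (adjusted p = 0.0011). The endothelial marker Tek was at 2.18 to 4.75 in control and at 13.3, 20.9 and 22.4 in the knockdown (log2 change 2.27 ± 0.42, adjusted p = 0.0059). Lyz2 and Tek reached the minimum signal for testing only through the knockdown libraries, so each had to be the higher one there. Pecam1 was at 68.2 in knockdown library 3 and at 1.90 to 4.97 elsewhere. Csf1r was at 29.4 to 51.8 in control and at 8.29, 9.20 and 72.7 in the knockdown (log2 change -1.09, adjusted p = 0.34, and -2.06, adjusted p = 0.00013, without library 3). Knockdown library 3 stood apart from the other libraries, and 3 RNAs that lack a poly(A) tail, Rn7sk, Rmrp and Rpph1, were high in it. Rn7sk, the RNA of the 7SK particle, was at 39.2, 45.5 and 52.3 in control, 455 and 446 in knockdown libraries 1 and 2, and 4286 in library 3. Rmrp, the RNA of RNase MRP, was at 34.8, 21.7 and 237 and Rpph1, the RNA of RNase P, at 23.2, 20.1 and 347 in knockdown libraries 1 to 3, against 19.6 to 39.9 and 14.2 to 28.5 in control. Malat1, a nuclear RNA, was at 142671 to 158089 in control, at 209070 and 209349 in knockdown libraries 1 and 2, and at 1262350 in library 3. These values move with several of the histone results, and their part in them was not tested.

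Of the 16 histone genes, 15 had a signal of at least 10 in at least 3 libraries and were tested. In the knockdown 4 were higher (Hist2h3c2, Hist3h2a, Hist1h2al and Hist2h4), 3 were lower (Hist1h1d, Hist1h1e and Hist1h2be), and 8 did not pass (limma, Benjamini-Hochberg adjusted p under 0.05). Across all 16245 genes tested, 45.2% were called, 21.7% higher and 23.5% lower, so 7 of 15 is close to the share of all genes. The median log2 change of the 15 was -0.16, beside -0.001 for all genes. Log2 changes ranged from -2.91 to 2.09, and the H1, H3 and H4 genes were found on both sides of 0, while both H2A genes lay above it and all 4 H2B genes below it. Without knockdown library 3, the H2B gene Hist2h2be lay at 0.06 and the H1 gene Hist1h1c at -0.02, neither of them called. All H1 genes then lay below 0, and H2B genes lay on both sides of it. In the authors' deposited table the same 7 genes, in the same directions, had an adjusted p under 0.05. Lower RNA of a gene in such bulk samples cannot be told apart from fewer cells that express it.

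The groups did not overlap for 8 of the 15 genes, 4 with the knockdown above and 4 with it below, where 62.6% of all genes had groups that did not overlap (30.0% above and 32.7% below). Knockdown libraries 1 and 2 both lay above every control for 5 of the 15 and below every control for 6, where this held for 42.2% and 43.2% of all genes. Without knockdown library 3, 4 genes were higher and 5 lower, including the 7 called with all libraries, where 78.5% of all genes were called, 38.6% higher and 39.9% lower. The genes added were Hist1h2bc and Hist1h4h, both lower. Without control library 2, 2 genes were higher (Hist1h2al and Hist2h4) and 3 lower, where 2608 of all 16245 genes were higher and 2778 lower.

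**Figure D1:**
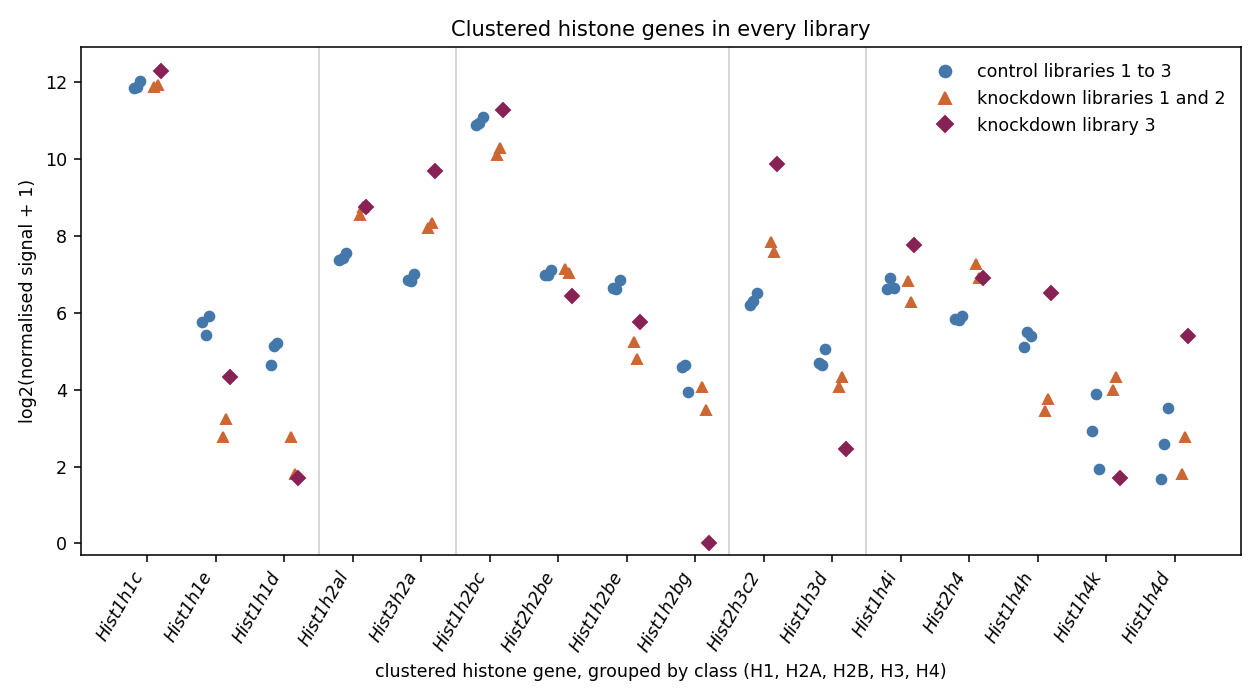
Log2 of normalised signal plus 1 of the 16 clustered histone genes in each library, 1 point per library, grouped by histone class. Hist1h1c and Hist1h2bc lie far above the others, and knockdown library 3 (diamonds) lies away from knockdown libraries 1 and 2 for genes such as Hist2h3c2, Hist1h4h and Hist1h2bg.

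**Figure D2:**
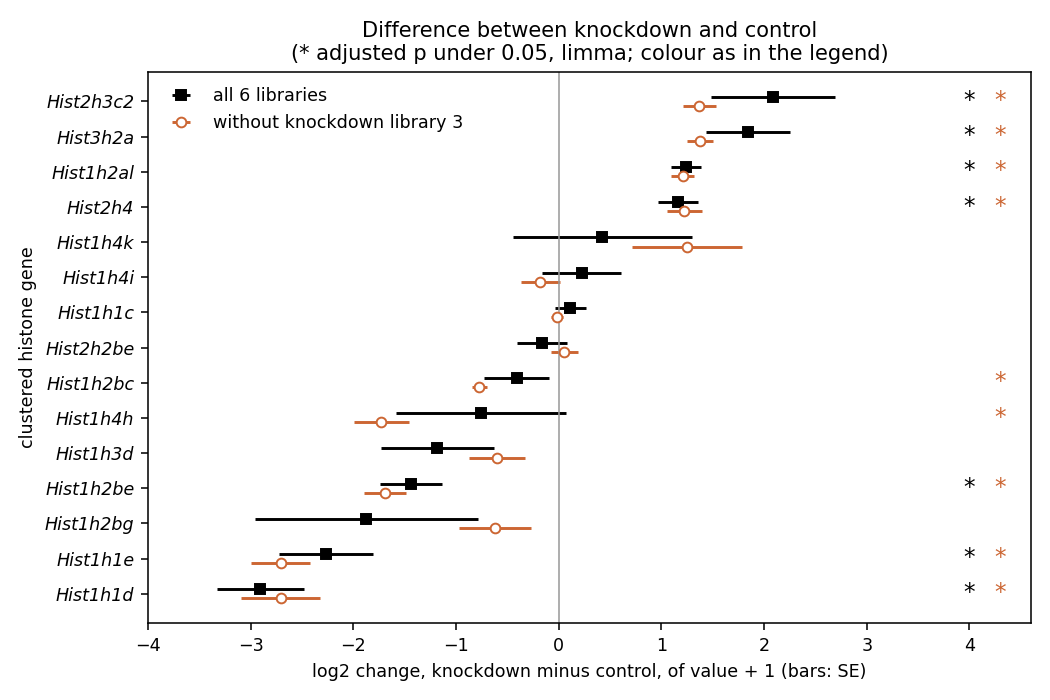
Log2 change (knockdown minus control) of the 15 tested genes with SE, with all 6 libraries (squares) and without knockdown library 3 (open circles); asterisks mark an adjusted p under 0.05 in limma. The 4 genes that were higher and the 3 that were lower kept their call without that library, and Hist1h2bc and Hist1h4h gained one.

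The linker histone genes split. Hist1h1d (H1.3) and Hist1h1e (H1.4) fell, while Hist1h1c (H1.2), the most abundant clustered histone RNA in these libraries, did not pass. Hist1h1d (ENSMUSG00000052565, chromosome 13, 23553262 to 23560686, plus strand) was at 23.97, 34.1 and 36.1 in control libraries 1 to 3 and at 5.80, 2.51 and 2.24 in the knockdown. These values rest on 22, 27 and 38 reads in control and on 7, 3 and 2 in the knockdown, and all knockdown values lay below all control values. Its log2 change was -2.91 ± 0.42 (± SE here and below, with n = 3 in each group; adjusted p = 0.0024), and -2.71 ± 0.38 without knockdown library 3. It reached the minimum signal only through the control libraries, and a gene that enters a test in this way had to be the lower one in the knockdown. Hist1h1e (ENSMUSG00000051627, chromosome 13, 23620629 to 23622558, minus strand) was at 53.4, 41.7 and 59.9 in control and at 5.80, 8.36 and 19.0 in the knockdown. Library 3 was the highest of the knockdown libraries but lay below every control. The log2 change was -2.26 ± 0.46 (adjusted p = 0.0089), and -2.71 ± 0.29 without library 3. Hist1h1e too met the minimum signal through the control libraries, with only library 3 of the knockdown above it, so the same limit holds for both genes that fell. Hist1h1c (ENSMUSG00000036181, chromosome 13, 23738808 to 23740367, plus strand) was at 3671, 3741 and 4172 in control and at 3759.8, 3854 and 5007 in the knockdown. Knockdown libraries 1 and 2 lay within the control range and library 3 above it. The difference was 0.11 ± 0.15 (adjusted p = 0.58), and -0.02 ± 0.06 without library 3.

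The promoters of the 3 H1 genes are shown, which all hold AAACACA and CCAAT, while among them only Hist1h1d and Hist1h1e hold TATAAA. Sequences are those of RefSeq on GRCm38.p6, from 250 bases before to 50 bases after the gene start, at chr13:23738557-23738856 (plus strand) for Hist1h1c, chr13:23554782-23555081 (plus) for Hist1h1d and chr13:23622509-23622808 (minus) for Hist1h1e. The RefSeq start of Hist1h1d lies downstream of the GENCODE start given above, inside that gene model, so its window does too. Capitals mark AAACACA, the element known as the H1 box, CCAAT and TATAAA on either strand.
Hist1h1c: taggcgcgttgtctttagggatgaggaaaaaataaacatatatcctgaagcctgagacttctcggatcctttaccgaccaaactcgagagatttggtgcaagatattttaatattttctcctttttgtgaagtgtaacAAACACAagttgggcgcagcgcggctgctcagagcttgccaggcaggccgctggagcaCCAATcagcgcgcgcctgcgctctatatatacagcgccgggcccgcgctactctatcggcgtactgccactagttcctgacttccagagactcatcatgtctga
Hist1h1d: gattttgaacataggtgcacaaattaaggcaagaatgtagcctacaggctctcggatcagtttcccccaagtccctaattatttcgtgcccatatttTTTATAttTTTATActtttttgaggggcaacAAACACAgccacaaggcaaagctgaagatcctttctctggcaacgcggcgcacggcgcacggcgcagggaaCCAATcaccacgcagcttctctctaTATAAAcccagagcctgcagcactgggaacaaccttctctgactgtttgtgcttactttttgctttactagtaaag
Hist1h1e: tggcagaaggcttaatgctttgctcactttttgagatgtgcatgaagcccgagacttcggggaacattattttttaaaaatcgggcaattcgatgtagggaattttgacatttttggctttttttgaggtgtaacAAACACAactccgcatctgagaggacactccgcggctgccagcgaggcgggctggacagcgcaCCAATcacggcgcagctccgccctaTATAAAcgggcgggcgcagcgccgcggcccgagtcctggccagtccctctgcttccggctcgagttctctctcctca
AAACACA began 112, 122 and 115 bases before the start of Hist1h1c, Hist1h1d and Hist1h1e, and CCAAT 54, 51 and 52 bases before it. Of 12 histone genes with a promoter in the table, only these 3 held AAACACA, against 7.18% of 32851 promoters of the same length. CCAAT was found in 9 of the 12 genes and in 37.4% of promoters. TATAAA was found in 7 of the 12, among them Hist1h1d and Hist1h1e with a copy 26 and 27 bases before the start, and in 13.6% of promoters; these letters are not in the window of Hist1h1c. A match is a description of letters and was not tied to the RNA values by a test.

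Both H2A genes were higher in the knockdown. Hist3h2a (ENSMUSG00000078851, chromosome 11, 58954685 to 58956830, plus strand), the only gene of the Hist3 locus in the table, was at 114, 112 and 127 in control and at 294, 321 and 817 in the knockdown. Every knockdown value lay above every control value, with library 3 the highest by far. The log2 change was 1.84 ± 0.41 (adjusted p = 0.012, and 0.051 without control library 2), and 1.38 ± 0.12 without knockdown library 3. The annotated gene overlaps Trim17 on the same strand and Gm44313 on the opposite strand. Trim17, looked at after the values were seen, was at 54.3 to 80.6 in control and at 92.9, 92.0 and 42.5 in the knockdown (log2 change 0.08 ± 0.37, adjusted p = 0.88). Hist1h2al (ENSMUSG00000091383, chromosome 13, 51202727 to 51203065, minus strand) lies far from the other 11 Hist1 genes, which stand between 21750194 and 23740367. RefSeq names it H2af-ps2 and GENCODE annotates a processed pseudogene, which overlaps Gm44341 on the opposite strand. The strand setting of the counts is not known here, so reads from the opposite strand may be included for both H2A genes. Hist1h2al was at 165, 171 and 186 in control and at 376, 431 and 433 in the knockdown, so its 3 knockdown libraries were close together. Its log2 change was 1.24 ± 0.15 (adjusted p = 0.00098), and 1.21 ± 0.11 without knockdown library 3.

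The promoter of Hist3h2a (RefSeq, GRCm38.p6, chr11:58954435-58954734, plus strand) is shown as that of a gene that was higher in all knockdown libraries, with CCAAT and the octamer ATTTGCAT in capitals on either strand.
Hist3h2a: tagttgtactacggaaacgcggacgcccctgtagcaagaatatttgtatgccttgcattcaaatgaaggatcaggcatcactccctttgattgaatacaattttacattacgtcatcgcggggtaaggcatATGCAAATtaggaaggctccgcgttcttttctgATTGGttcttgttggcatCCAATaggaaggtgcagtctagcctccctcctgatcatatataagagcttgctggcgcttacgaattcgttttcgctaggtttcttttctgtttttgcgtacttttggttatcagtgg
The octamer, a site known from H2B promoters and bound by the factor Oct-1, began 119 bases before the start and CCAAT motifs 86 and 68 bases before it. ATTTGCAT was held by 1.74% of all promoters, and among the 12 histone genes also by the promoter of Hist1h2bg, 59 bases before the start, and by 1 of the 2 listed promoters of Hist1h2be, 67 bases before the start. Of these genes, Hist3h2a was higher and Hist1h2be lower in the knockdown, and Hist1h2bg did not pass. A tie between the octamer and the RNA values was not tested.

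Among the H2B genes, Hist1h2be fell and the others did not pass. Hist1h2be (ENSMUSG00000047246, chromosome 13, 23583670 to 23621124, minus strand) was at 99.2, 97.3 and 114 in control and at 36.5, 26.8 and 53.7 in the knockdown. The groups did not overlap, and the log2 change was -1.44 ± 0.30 (adjusted p = 0.0098; -1.69 ± 0.20 without knockdown library 3). Its gene model overlaps that of Hist1h1e on the same strand, so reads in the shared stretch cannot be given to either gene with certainty. Hist1h2bc (ENSMUSG00000018102, chromosome 13, 23684199 to 23692908, plus strand) was the second most abundant gene, at 1886, 1953 and 2167 in control and at 1101, 1244 and 2496 in the knockdown. Libraries 1 and 2 lay below every control and library 3 above every control. The log2 change was -0.41 ± 0.32 (adjusted p = 0.34), and -0.77 ± 0.08 (adjusted p = 5.9e-06) without library 3. Hist2h2be (chromosome 3, 96221119 to 96223738), an H2B gene with a long polyadenylated transcript, was at 125, 125 and 138 in control and at 139, 129.7 and 85.0 in the knockdown. Its log2 change was -0.16 ± 0.24 (adjusted p = 0.62), and 0.06 ± 0.13 without library 3, which lay below every other library. Hist1h2bg was at 22.9, 23.998 and 14.3 in control and at 15.8, 10.04 and 0 in the knockdown. It rested on 15 to 21 reads per control library and on 19, 12 and 0 reads in the knockdown, where a count of 0 allows up to 3 reads, or 3.35 units, in library 3. The difference was -1.87 ± 1.09 (adjusted p = 0.21), and -0.62 ± 0.35 without library 3.

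The 2 H3 genes moved apart. Hist2h3c2 (ENSMUSG00000081058, chromosome 3, 96238108 to 96239127, minus strand) was at 73.0, 78.3 and 90.3 in control and at 229.6, 189.9 and 931 in the knockdown. All knockdown values lay above the control values, and library 3 was far above libraries 1 and 2. The log2 change was 2.09 ± 0.61 (adjusted p = 0.034), and 1.37 ± 0.16 (adjusted p = 2.1e-05) without library 3. With control library 1, 2 or 3 left out the adjusted p was 0.104, 0.101 or 0.089. Its coding sequence is 99.75% identical to that of Hist2h3b, so reads can be split between the 2 genes or lost. Hist1h3d was at 25.1, 23.998 and 32.3 in control and at 15.8, 19.2 and 4.47 in the knockdown. Its groups did not overlap, but the difference of -1.18 ± 0.55 did not pass (adjusted p = 0.13).

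Of the 5 H4 genes, Hist2h4 was higher, and the rest did not pass or were not tested. Hist2h4 (ENSMUSG00000091405, chromosome 3, 96261682 to 96263311, minus strand) was at 56.7, 55.6 and 58.9 in control and at 153, 119 and 118 in the knockdown. The groups did not overlap, and library 3 was like libraries 1 and 2. The log2 change was 1.16 ± 0.20 (adjusted p = 0.0042), and 1.22 ± 0.17 without library 3. Hist1h4h was at 33.8, 44.2 and 40.9 in control and at 9.95, 12.5 and 90.5 in the knockdown. Libraries 1 and 2 lay below all controls and library 3 above them, so that the log2 change was -0.76 ± 0.83 (adjusted p = 0.49) with all libraries and -1.73 ± 0.27 (adjusted p = 0.00018) without library 3. Hist1h4i was at 98.1, 119 and 99.8 in control and at 112, 77.0 and 215 in the knockdown (log2 change 0.22 ± 0.39, adjusted p = 0.67). Without library 3 its sign was reversed, at -0.18 ± 0.19 (adjusted p = 0.42). Hist1h4k had 3 to 11 reads per control library and 18, 23 and 2 in the knockdown. Its difference was 0.42 ± 0.87 (adjusted p = 0.72), and 1.25 ± 0.54 (adjusted p = 0.055) without library 3. Hist1h4d, the gene below the minimum signal, was at 2.18, 5.05 and 10.5 in control and at 2.49, 5.86 and 41.4 in the knockdown. It had 37 reads in library 3 and 2 to 11 in every other library.

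H4 genes are known to encode the same protein, and the coding sequences of the members were 83.1 to 99.75% identical to that of the nearest other clustered histone gene. How reads that fit several genes were counted is not given in the sources used here, so values of single H2B, H3 and H4 genes are uncertain in that respect.

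Summed by class, H1 signal was 3748 to 4268 in control and 3771, 3865 and 5028 in knockdown libraries 1 to 3. H2A signal was 279 to 314 in control and 669.9, 752 and 1249.8 in the knockdown, above every control in each library. The annotated pseudogene Hist1h2al held 165 to 186 of this sum in control and 376, 431 and 433 in knockdown libraries 1 to 3. H2B signal was 2133 to 2433 in control, below that range in libraries 1 and 2 (1292 and 1410.3) and above it in library 3 (2635). H3 signal was 98.1 to 123 in control and 245, 209 and 936 in the knockdown. H4 signal was 197 to 237 in control and 292, 233 and 467 in the knockdown. Hist1h1c and Hist1h2bc together made up 85.8 to 86.3% of the summed signal of the 16 genes in control and 77.5, 78.8 and 72.7% in the knockdown. Without these 2 genes the sum was 899 to 1011 in control and 1410.2, 1372 and 2813 in the knockdown, where Hist3h2a, Hist2h3c2 and Hist1h2al held the larger values.

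**Figure D3:**
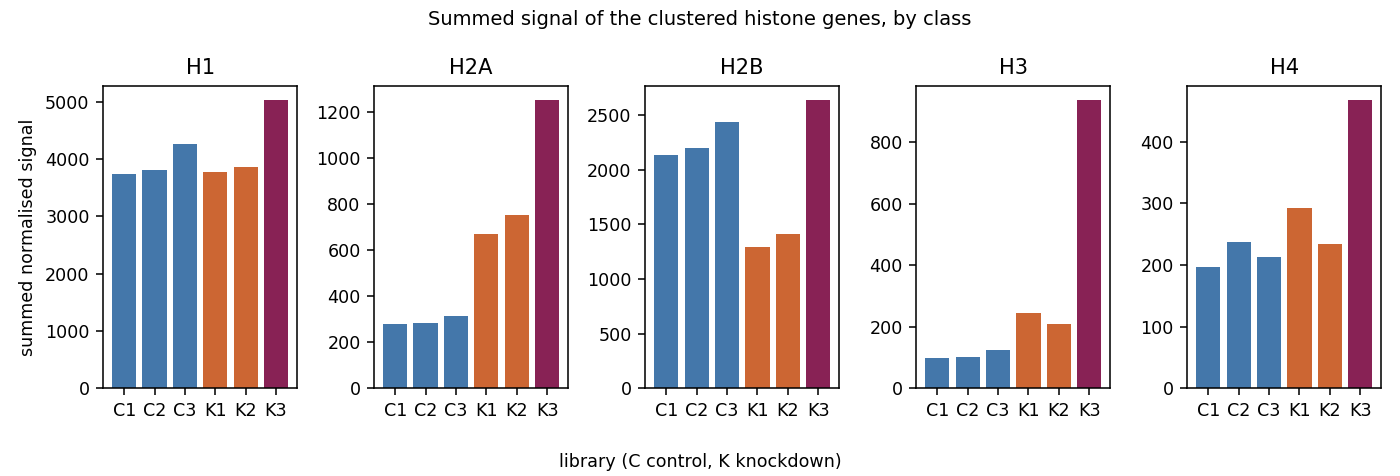
Summed normalised signal of the clustered histone genes of each class in control (C1 to C3) and knockdown (K1 to K3) libraries, with a scale of its own for each class. K1 and K2 lie above the controls for H2A and H3 and below them for H2B, and K3 is the highest library in every class.

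Per kilobase of annotated exons, the control level was highest for Hist1h1c (2475 units per kb), followed by Hist1h2bc (1732), Hist1h2al (513) and Hist1h4i (145), and the ranges of these 4 over the control libraries did not overlap. Hist1h4h (84.3 units per kb) and Hist2h3c2 (78.9) had ranges that overlapped, as did Hist3h2a (55.0) and Hist2h2be (49.4), and Hist2h4 (35.0) and Hist1h2bg (33.0). Hist1h1e, Hist1h4k, Hist1h2be and Hist1h3d followed at 26.8 to 21.7 with overlapping ranges. Hist1h4d (5.18) and Hist1h1d (4.23) were lowest, the latter over a transcript model of 7425 bases. In the knockdown the mean of Hist2h3c2 was 441 units per kb with all libraries and 206 without library 3, and that of Hist3h2a 223 and 143.

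Knockdown library 3 differed from the mean of libraries 1 and 2 by more than 2-fold, on the scale of signal plus 1, for 9 of the 15 genes, 6 above and 3 below, where 36.5% of all 16245 genes did (3325 above and 2601 below). The 6 above were Hist1h4h (log2 difference 2.90), Hist2h3c2 (2.15), Hist3h2a (1.41), Hist1h1e (1.31), Hist1h4i (1.18) and Hist1h2bc (1.09), and the untested Hist1h4d was higher by 3.03. The 3 below were Hist1h2bg (-3.80), Hist1h4k (-2.48) and Hist1h3d (-1.76), each with 0 to 4 reads in library 3. For 6 of the 15 genes library 3 and the mean of libraries 1 and 2 lay on opposite sides of the control mean, where this held for 27.3% of all genes. All 15 values of library 3 lay outside the control range, 8 above and 7 below, where 45.9% of all genes lay above and 48.0% below. The differences of Rn7sk, Rmrp, Rpph1 and Malat1 on the same scale were 3.25, 3.02, 3.94 and 2.59, and that of the nuclear RNA Neat1 was -0.08. Small nucleolar and Cajal body RNAs, of which 33 had a row, summed to 1206 to 1387 in control and 900.4, 954 and 2020.1 in the knockdown, with 13 of the 33 above every control in library 3, a share below the 45.9% of all genes, and 3 and 1 in libraries 1 and 2.

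**Figure D4:**
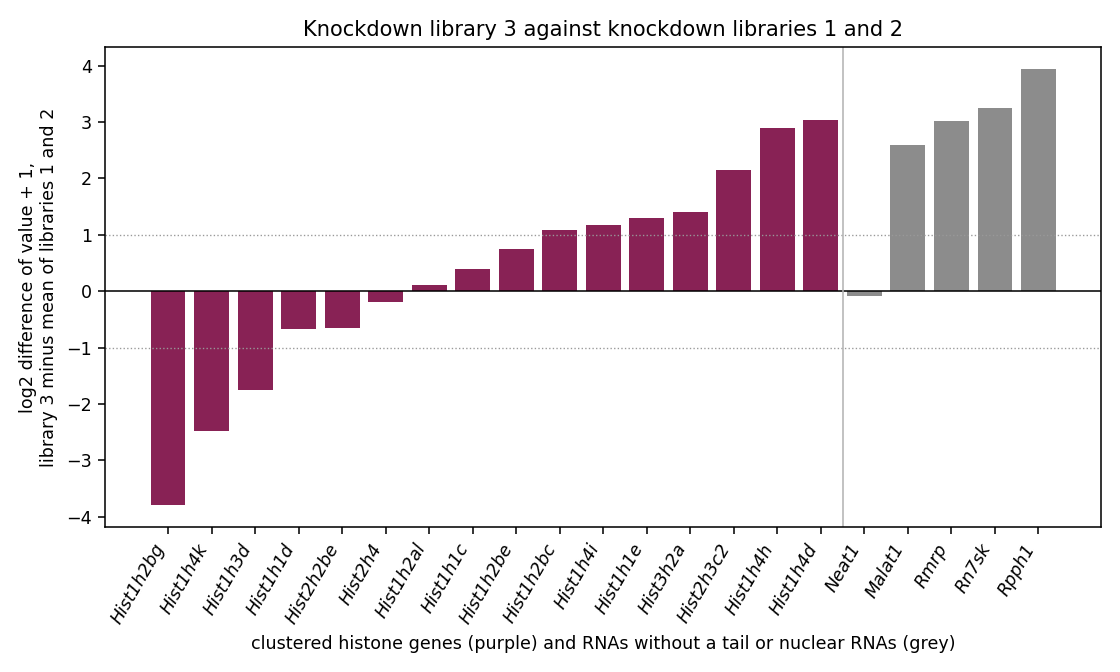
Log2 difference of signal plus 1 between knockdown library 3 and the mean of knockdown libraries 1 and 2, for the 16 clustered histone genes (purple) and 5 RNAs without a poly(A) tail or kept in the nucleus (grey). Dotted lines mark a 2-fold difference; histone genes lie from -3.80 to 3.03, and 4 of the 5 grey bars lie above 2.5.

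Genes were also set beside each other by their annotated ends. Of the 6 genes with a long polyadenylated transcript, 2 were higher (Hist3h2a and Hist2h4), 1 was lower (Hist1h2be) and 3 did not pass, with a median log2 change of 0.17, or 0.02 without knockdown library 3. Of the 9 tested genes without one, 2 were higher, 2 lower and 5 did not pass, with a median of -0.76, or -0.62 without that library. Both shares are near the 45.2% of all genes that were called. The split rests on an annotated signal as well as on length. Models without a signal ran 4884 bases past the stem-loop in Hist1h1d, 1153 in Hist1h1e, 752 in Hist1h3d, 377 in Hist2h3c2 and 155 in Hist1h2bg. The model of Hist1h2bc ran 742 bases past its stop codon, also without a signal. Hist1h4h held a signal but ran only 46 bases past the stem-loop, and Hist1h4k ended at its stop codon. By position, 0 of the 10 tested genes of the Hist1 cluster were higher and 3 were lower, Hist1h2al being counted apart because it lies elsewhere on chromosome 13, while 2 of 3 Hist2 genes and the Hist3 gene were higher. These counts stand beside 21.7% higher and 23.5% lower among all genes. Of the 3 lower Hist1 genes, Hist1h1d and Hist1h1e met the minimum signal through the control libraries, so they could only be called lower. They are also the 2 lower genes without a long polyadenylated transcript. Without knockdown library 3 the Hist1 cluster had 0 higher and 5 lower genes, where 38.6% of all genes were higher and 39.9% lower.

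Histone genes outside the clusters encode variants, most of which are not tied to S phase. Of 11 such genes, 3 were higher, 3 lower and 5 did not pass, where 45.2% of all genes were called. Without knockdown library 3, 5 were higher and 6 lower, where 78.5% of all genes were called. The median log2 change was 0.01, and -0.32 without that library. H2afy2, which encodes macroH2A2, rose from 18.5 ± 4.81 (SD, n = 3) to 129.9 ± 4.11 (log2 change 2.77 ± 0.26, adjusted p = 0.00043). H3f3b, one of the genes for H3.3, was higher by 0.57 ± 0.12 (adjusted p = 0.010, and 0.067 and 0.052 without control library 1 or 3). H2afx, whose protein marks DNA breaks, fell from 1663 ± 54.2 to 644 ± 45.9 (log2 change -1.37 ± 0.11, adjusted p = 0.00025). Cenpa, the centromeric H3 variant, was at 744, 755 and 759 in control and at 153, 141 and 289.5 in the knockdown (log2 change -2.03 ± 0.29, adjusted p = 0.0023).

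Of 20 genes for the synthesis and 3' processing of histone messages, 4 were higher and 5 lower, a share close to the 45.2% of all genes, with a median of -0.23 (-0.16 without knockdown library 3). In all 16 were called without knockdown library 3 (6 higher and 10 lower), close to the 78.5% of all genes. The number was 3 without control library 1, 2 or 3, where 5101, 5386 and 5132 of all 16245 genes were called. It was 5 without knockdown library 1 or 2, where 6286 and 6081 of all genes were called, against 7342 with all libraries. Slbp, the stem-loop binding protein, was at 1022, 1027 and 990 in control and at 779, 713.5 and 626 in the knockdown. Its log2 change was -0.53 ± 0.13 (adjusted p = 0.018, and 0.080, 0.071, 0.067 and 0.057 without control library 1, 2 or 3 or knockdown library 2). Npat, the coactivator of histone transcription at the start of S phase, did not pass (0.08 ± 0.16, adjusted p = 0.73; 0.22 without knockdown library 3, adjusted p = 0.011). Zcchc11, a terminal uridylyltransferase, and Casp8ap2, a processing factor also called FLASH, were higher by 1.09 ± 0.12 (adjusted p = 0.00081) and 0.65 ± 0.13 (adjusted p = 0.0074). Ncbp1, of the cap-binding complex, fell by 0.60 on the log2 scale (SE 0.12, adjusted p = 0.0075).

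Histone chaperones, which carry histones to and from DNA, numbered 22, of which 7 fell and 1 rose, where 23.5% of all genes were lower and 21.7% higher. Their median was -0.20, and -0.10 without knockdown library 3. The number called was 19 without knockdown library 3 (8 higher and 11 lower, where 78.5% of all genes were called). It was 3, 5 and 3 without control library 1, 2 or 3, and 4 without knockdown library 1 or 2. Calls among all 16245 genes also fell in these fits, from 7342 to 5101, 5386 and 5132, and to 6286 and 6081. Asf1b, a chaperone of H3 and H4 that is tied to proliferation, fell from 476 ± 40.8 to 154 ± 12.8 (log2 change -1.62 ± 0.15, adjusted p = 0.00039). Anp32e, a chaperone of H2A.Z, fell by 0.80 on the log2 scale (SE 0.14, adjusted p = 0.0051). Hira, which deposits H3.3 outside S phase, was higher by 0.51 ± 0.13 (adjusted p = 0.024, and 0.106, 0.094, 0.061 and 0.078 without control library 1 or 3 or knockdown library 1 or 2). Of 18 markers of S phase and proliferation, 11 were lower and 1 higher, with a median of -1.02, where 23.5% of all genes were lower. Without knockdown library 3, 15 were lower and 2 higher, with a median of -0.82, where 39.9% of all genes were lower. Their summed signal was 37226 to 39500.0 in control and 18438, 18723 and 15431 in the knockdown, lower in each knockdown library. Ccna2, a cyclin of S phase and mitosis, and the topoisomerase Top2a had log2 changes of -3.02 ± 0.14 and -2.67 ± 0.14 (adjusted p = 3.1e-05 and 5.9e-05), and the helicase gene Mcm4 was higher by 1.12 ± 0.18 (adjusted p = 0.0037). The sliding clamp Pcna did not pass with all libraries (-0.42 ± 0.16, adjusted p = 0.077), but was lower without knockdown library 3 (-0.27 ± 0.06, adjusted p = 0.0020).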

How the data were processed

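Poly(A)-selected RNA of 6 libraries was sequenced as paired 150 bp reads, per the labels' protocols. The submitters' processing notes name the build GRCm38, DESeq2, featureCounts (Subread 1.5.2) and Trimmomatic 0.36. The sources used here give no aligner, annotation, strand setting or treatment of reads that fit several genes. The deposited signal is a gene count divided by a size factor per library; 100% of values were whole multiples of 1 read (tolerance 0.01 reads), so reads were recovered. The deposited table also holds the authors' log2 fold change, p-value and adjusted p-value, per the file headers. Groups came from the sample titles.

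limma 3.58.1 (R 4.3.3) was fitted on the whole table to log2(signal + 1) with a mean-variance trend, for 16245 genes with a signal of at least 10 in at least 3 libraries, two-sided, without a block, with Benjamini-Hochberg adjustment at 0.05. The 1 added to the signal shrinks fold changes of low genes, but they are not lower bounds. The log2 change of Hist1h2bg was -1.87 here and -1.16 in edgeR on recovered reads, that of Hist1h4h -0.76 and -0.04, and that of Hist1h1d -2.91 and -3.06. An exact permutation test of a single gene cannot go below 0.1 with 3 libraries per group. Alternatives were other filters, pseudocounts and scalings, a replicate block, limma without a trend, an adjusted p of 0.01, each library left out, and, on the recovered reads, DESeq2 1.42.0 and edgeR 4.0.16. The procedure was also run on simulated reads with a common spread, few changed genes and no library that stood apart. That run therefore does not show how the procedure behaves with knockdown library 3 included. The genes and lists were chosen with earlier results of these data known. By rule, every histone gene is given, and of each list up to 2 genes per direction with the smallest adjusted p, plus Slbp, Npat, Pcna, Adamtsl2 and Malat1; other genes were chosen after their values were seen. Replicates were compared by a chi-square of recovered reads per gene, where 1 is sampling noise. It was 6.854 to 15.9 for pairs of control libraries and 3.855 for knockdown libraries 1 and 2. With knockdown library 3 it was 772.5 and 727.2. Each library counted as 1 sample, though values above 1 do not show that libraries came from separate cultures. Sequences came from GENCODE M21 transcripts and RefSeq promoters; all 16 histone genes matched RefSeq by symbol or synonym, 12 of them with a promoter.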

Additional observations from a re-analysis of the deposited data

How the results depend on the processing

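The 7 histone genes called kept call and direction under no filter, both other pseudocounts, both other scalings, limma without a trend, edgeR, DESeq2 and the replicate block, under which 7 were also called. A minimum of 50 left 1 lower gene, since Hist1h1d and Hist1h1e were then not tested. An adjusted p of 0.01 left 2 higher histone genes, 4828 genes in all, 3 of the processing list and 2 of the chaperones. Without 1 library, 2 to 4 histone genes were higher and 3 to 5 lower, 5101 to 12754 genes were called in all, 4 to 11 variants, 3 to 16 processing genes and 3 to 19 chaperones. Of these 6 fits, only that without knockdown library 3 gave counts above those with all libraries; the cause was not tested. With the replicate block 4 chaperones were called; H3f3b, Slbp and Hira had adjusted p of 0.053, 0.056 and 0.065. Replicate numbers pair no samples by the labels: same-numbered libraries deviated together with correlations of 0.017, 0.105 and 0.143, and control library 2 correlated best with knockdown library 1 (0.116). Upper-quartile scaling moved the median of all genes from -0.001 to 0.12 and edgeR to 0.11. The sum of H1 without Hist1h1c had a log2 ratio of -2.51 (0.10 with it), and that of H3 without Hist2h3c2 -1.04 (2.11 with it). Depth limits genes with under 20 reads in a library, such as Hist1h1d, Hist1h2bg, Hist1h4k and Hist1h4d.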
